A study of Homo sapiens with 30 samples.

Results

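The TRA2, SRRM, SRPK and CLK genes are 10 human genes for proteins that bind to, or phosphorylate, the arginine- and serine-rich (RS) domains of splicing factors. They were chosen by name: TRA2A, TRA2B, SRRM1, SRRM2, SRPK1, SRPK2, CLK1, CLK2, CLK3 and CLK4. All 10 were found among the 61487 genes of the deposited table, and all 10 passed the filter on low counts, as did 31444 genes in all.

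The libraries came from eHAP FNLS, a haploid human line of the HAP1 family. It expresses FNLS, a cytosine base editor, and received a single-guide RNA (sgRNA). The 4 edited genotypes were compared with 1 control. PHF5A 2xTL (sgRNA PHF5A_6) has a short insertion in PHF5A, and SF3B1 T1080I (sgRNA SF3B1_166) has a substitution in SF3B1. Both genes encode subunits of SF3b, the part of the U2 snRNP that pladienolide B binds. SUGP1 E554K (sgRNA SUGP1_238) and SUGP1 G603N (sgRNA SUGP1_188) have substitutions in SUGP1, a splicing factor that works beside SF3B1. The control line received a non-targeting sgRNA. Cells of every genotype were treated for 3 h with 2 nM pladienolide B (PB) or with DMSO, its solvent, which gave 10 groups of 3 libraries. Each edited genotype was represented by 3 separate monoclonal lines, whereas the control libraries were 3 replicates of 1 line, so the spread within a group is between clones in the mutants and between replicates of 1 line in the control. Nothing in the labels says that the control replicates were separate cultures, and p-values measure only the spread between the libraries fitted. The main fit estimates the spread of each gene over all 10 groups together. Its p-values in the control line thus also draw on the spread between mutant clones, and those in the mutants on the control replicates. All groups carry the base editor.

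TRA2A and TRA2B are the human transformer-2 proteins, which bind purine-rich exonic enhancers and promote inclusion of the exon. SRRM1 and SRRM2 are large RS-repeat proteins, the one a splicing coactivator and the other a scaffold of nuclear speckles. SRPK1 and SRPK2 are mainly cytoplasmic kinases that phosphorylate RS domains and so promote nuclear import of SR proteins, and CLK1 to CLK4 are nuclear kinases that phosphorylate the same domains and release SR proteins from speckles. Several of these genes make transcripts with retained introns or poison exons as well as the coding form, and a count per gene does not tell these forms apart.

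The 30 libraries held between 31592502 and 75037259 counts, the lowest and the highest being the PB and the DMSO library of line 3 of SUGP1 E554K. Levels are given as CPM (counts per 1000000 counts) after scaling of the libraries by the TMM method, and differences as log2 fold changes with an approximate standard error. Haematopoietic markers (PTPRC, CD33, CD34, SPI1, GATA1 and CD14) reached at most 0.886 CPM in any library. Other marker lists were mixed. Of the mesenchymal markers, VIM had 193 to 386 CPM, FN1 71.7 to 268, CDH2 56.6 to 114 and COL1A1 3.14 to 20.7, but COL1A2 at most 1.29. Of the epithelial markers, KRT18 had 18.4 to 68.3 CPM and KRT8 0.525 to 84.9, but EPCAM, CDH1 and KRT19 at most 1.29. Of the neural markers, MAP2 had 1.06 to 49.5 CPM, SYP and TUBB3 at most 7.61, and NEUROD1 and SOX10 at most 0.839. CPM is a share of the library, so a change in the RNA content of a cell is not seen in it. The table holds estimated counts with fractions, and the sources used here do not say how reads that match several genes were divided. TRA2A with TRA2B, SRPK1 with SRPK2 and CLK1 with CLK4 are related in sequence, and a share of reads could move within such a pair. Pseudogenes of the 10 genes held at most 1.96% of the counts of the gene they copy. Nor do they give the strand setting of the counting, and SRPK2, CLK3, CLK2, SRPK1 and SRRM2 overlap a gene on the other strand, so reads of the overlap cannot be told apart.

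**Figure D1:**
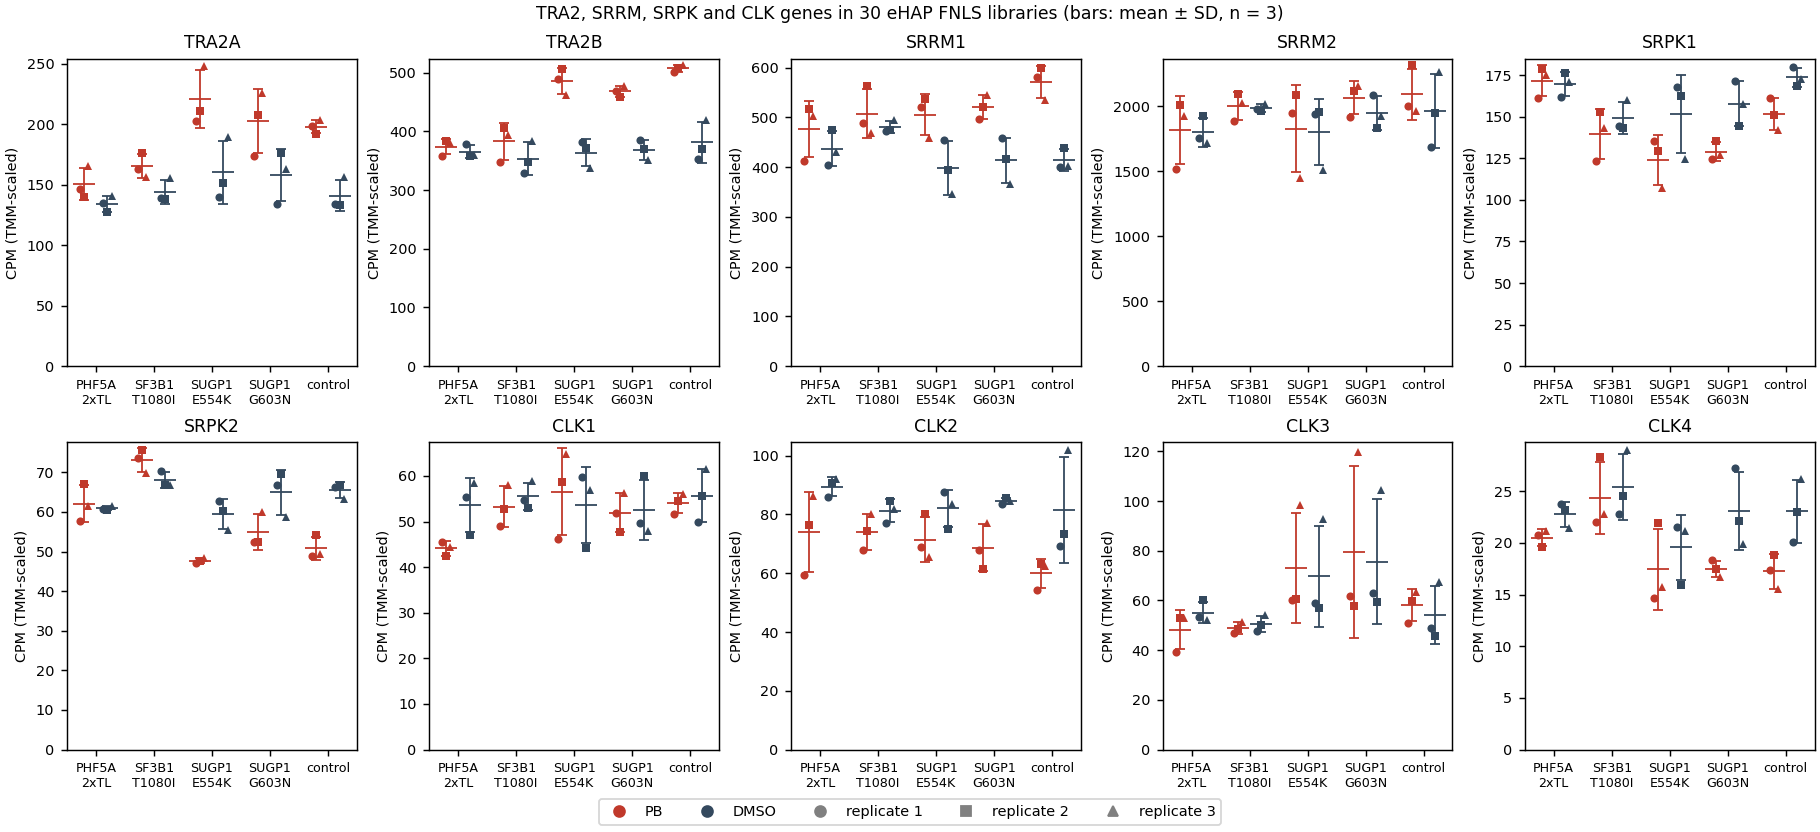
Level of each of the 10 genes in every library, in CPM, with a panel per gene, PB libraries left of DMSO libraries within each genotype and a marker shape for each replicate number. TRA2A, TRA2B and SRRM1 sit higher in the PB libraries of the control line than in its DMSO libraries, SRPK2 sits lower, and CLK3 is high in the third line of both SUGP1 genotypes.

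In the control line, which carries no splicing factor mutation, PB raised TRA2A, TRA2B and SRRM1 and lowered SRPK2. The other 6 genes did not pass the test at an adjusted p under 0.05. Of the 10 genes, 4 were called by edgeR's quasi-likelihood test, against 4.44% of all tested genes, with 3 higher (1.1% of all tested genes) and 1 lower (3.34%). The libraries of the PB and DMSO groups did not overlap for 7 of the 10 genes, 3 above and 4 below, against 25.3% of all tested genes. The median log2 fold change of the 10 genes was 0.03, beside 0.02 over all tested genes. The standard error of the log2 fold change ran from 0.09 (TRA2B) to 0.24 (CLK3) in the 10 genes. Its median over all tested genes was 0.49. A change of a given size was thus more easily called in the 10 genes than in most tested genes, so these shares are not a like comparison.

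TRA2A (ENSG00000164548, hg38 chromosome 7, 23504780 to 23532041, minus strand) had 198.9, 192.4 and 203.3 CPM in the PB libraries of the control line, against 133.8, 133.4 and 156.0 CPM in its DMSO libraries. The lowest PB library was well above the highest DMSO library. The log2 fold change was 0.49 ± 0.12 (SE), a 1.40-fold difference, with an edgeR adjusted p of 0.0153. TRA2B (ENSG00000136527, chromosome 3, 185915906 to 185938136, minus strand) had 500.9, 508.5 and 513.2 CPM with PB, against 353.2, 370.6 and 419.8 CPM with DMSO. The PB libraries lay close together and all above the DMSO libraries, and the log2 fold change was 0.41 ± 0.09 (edgeR adjusted p 0.00454). Both transformer-2 genes thus moved the same way and by about the same factor in the control line. Neither overlaps another annotated gene.

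SRRM1 (ENSG00000133226, chromosome 1, 24631716 to 24673267, plus strand) had 580.7, 599.0 and 535.7 CPM with PB, against 399.5, 439.5 and 402.4 CPM with DMSO in the control line. Its groups did not overlap, and the log2 fold change was 0.47 ± 0.11 (edgeR adjusted p 0.0112). SRRM2 (ENSG00000167978, chromosome 16, 2752329 to 2772538, plus strand), the other member of the pair, had 1997, 2318 and 1963 CPM with PB, against 1686, 1945 and 2259 CPM with DMSO. These groups overlapped over most of their range, and the log2 fold change of 0.09 ± 0.13 was within the spread (edgeR adjusted p 0.851). ELOB, whose gene overlaps SRRM2 by 1125 bases on the other strand, had a log2 fold change of 0.41 (edgeR adjusted p 0.0823).

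SRPK2 (ENSG00000135250, chromosome 7, 105110704 to 105399308, minus strand) had 48.8, 54.1 and 49.5 CPM with PB, against 66.3, 66.9 and 63.2 CPM with DMSO in the control line. All 3 PB libraries were lower than all 3 DMSO libraries. The gene fell by 0.37 ± 0.09 on the log2 scale, to 0.776 of its DMSO level (edgeR adjusted p 0.0176). KMT2E, which overlaps SRPK2 by 3658 bases on the other strand and had 204% of its counts, had a log2 fold change of 0.10 in the same comparison (edgeR adjusted p 0.795). SRPK1 (ENSG00000096063, chromosome 6, 35832966 to 35921342, minus strand) had 161.2, 151.3 and 141.9 CPM with PB, against 179.8, 168.6 and 172.9 CPM with DMSO. Its groups did not overlap either, but the log2 fold change of -0.20 ± 0.11 did not pass the test (edgeR adjusted p 0.469).

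None of the 4 CLK genes was called in the control line. CLK2 (ENSG00000176444, chromosome 1, 155262868 to 155278491, minus strand) was nearest, with 54.2, 63.2 and 62.4 CPM with PB, against 69.3, 73.2 and 102.1 CPM with DMSO. The third DMSO library stood above the rest, and the log2 fold change was -0.44 ± 0.13 (edgeR adjusted p 0.0579). With the replicate number as a block, CLK2 was called (edgeR adjusted p 0.00851, against 9.84% of all tested genes called with the block), and also by DESeq2 (adjusted p 0.0409). CLK4 (ENSG00000113240, chromosome 5, 178602664 to 178630615, minus strand) was the least abundant of the 10, with 17.4, 18.9 and 15.5 CPM with PB, against 20.1, 23.0 and 26.2 CPM with DMSO (log2 fold change -0.42 ± 0.16, edgeR adjusted p 0.176). CLK1 (ENSG00000013441, chromosome 2, 200853009 to 200864744, minus strand) had 51.7, 54.5 and 56.0 CPM with PB, against 49.8, 55.6 and 61.5 CPM with DMSO. The CLK1 groups overlapped fully, with a log2 fold change of -0.04 ± 0.13 (edgeR adjusted p 0.950). CLK3 (ENSG00000179335, chromosome 15, 74598500 to 74645414, plus strand) had 50.9, 60.0 and 63.2 CPM with PB, against 49.0, 45.9 and 67.6 CPM with DMSO (log2 fold change 0.10 ± 0.24, edgeR adjusted p 0.927).

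With 1 control library left out at a time, the log2 fold changes of these genes stayed at 0.44 to 0.55 for TRA2A, 0.36 to 0.47 for TRA2B, 0.43 to 0.51 for SRRM1 and -0.41 to -0.34 for SRPK2, while fewer of all tested genes were called (1.97% to 2.91%, against 4.44% with all libraries). In these fits edgeR called TRA2A, TRA2B and SRPK2 without DMSO library 3 (2.91% of all genes) or PB library 2 (2.54%), and TRA2B with SRRM1 without PB library 3 (1.97%). It called TRA2B alone without PB library 1 (2.42%), and CLK2 alone without DMSO library 1 (2.86%, adjusted p 0.0333). None of the 10 was called without DMSO library 2 (2.29%), where 6 of the 10 and 3707 of all 33612 tested genes had an edgeR unadjusted p under 0.05. Without the low-count filter SRPK2 was not called (log2 fold change -0.37, edgeR adjusted p 0.204), when 1.76% of all genes were called.

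The start regions of TRA2B, SRRM1 and SRPK2 are shown because the first pair rose together with PB and the third gene fell. The windows run from 250 bases before to 50 bases after a transcription start listed in RefSeq (GRCh38.p14), and 9 of the 10 genes have an entry. They are written 5′ to 3′ along the gene, with matches to the motifs searched in capitals. SRRM1 has 3 listed starts and SRPK2 has 4, and the window shown is the most upstream one for SRRM1 and the one with the highest GC content for SRPK2, at chr3:185937965-185938264 (minus strand), chr1:24643052-24643351 (plus strand) and chr7:105388872-105389171 (minus strand) in the order below.
TRA2B: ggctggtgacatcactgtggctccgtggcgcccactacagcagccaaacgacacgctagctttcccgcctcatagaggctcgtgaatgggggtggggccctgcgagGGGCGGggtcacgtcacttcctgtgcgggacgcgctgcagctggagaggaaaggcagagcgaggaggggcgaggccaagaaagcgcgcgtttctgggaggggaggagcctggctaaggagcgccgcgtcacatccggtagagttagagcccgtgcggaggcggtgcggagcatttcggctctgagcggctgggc
SRRM1: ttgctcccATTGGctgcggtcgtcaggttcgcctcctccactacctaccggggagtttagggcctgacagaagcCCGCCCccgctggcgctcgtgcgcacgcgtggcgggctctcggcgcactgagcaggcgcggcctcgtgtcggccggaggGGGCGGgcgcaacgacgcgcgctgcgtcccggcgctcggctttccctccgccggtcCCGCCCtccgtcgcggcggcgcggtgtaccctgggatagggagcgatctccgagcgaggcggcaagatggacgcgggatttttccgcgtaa
SRPK2: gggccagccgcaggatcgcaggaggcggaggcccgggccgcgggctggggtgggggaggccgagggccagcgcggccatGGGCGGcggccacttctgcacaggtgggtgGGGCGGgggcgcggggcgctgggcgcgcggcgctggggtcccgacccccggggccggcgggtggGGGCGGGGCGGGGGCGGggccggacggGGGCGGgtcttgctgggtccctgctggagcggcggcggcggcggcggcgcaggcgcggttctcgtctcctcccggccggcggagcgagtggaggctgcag
The GC content of these windows is 66.7%, 72.0% and 83.7%, beside a median of 58.7% over the 35116 windows of the table. Motifs were searched on both strands: the GC box GGGCGG (in 45% of all windows), the CCAAT box CCAAT (34.6%), the TATA box TATAAA (11.5%), the CRE TGACGTCA (1.85%), the ETS site CCGGAAGT (4.14%) and the E2F site TTTCGCGC (0.515%). The TRA2B window holds 1 GC box, the SRRM1 window 3 GC boxes and 1 CCAAT box, and the SRPK2 window 6 GC boxes, of which a pair shares a base. No other motif of the list matched in these windows. The SRPK2 window was picked by its GC content, so its GC content and GC boxes cannot be weighed against the values over all windows. The other SRPK2 windows have a GC content of 47.0%, 55.3% and 36.0%, the first being the most upstream, and hold no GC box. A TATA box in the 36.0% window is their only match. The other SRRM1 windows (69.7% and 69.0%) hold no match.

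The SUGP1 lines were edited outside SF3b. In SUGP1 E554K, edgeR called 3 of the 10 genes, against 4.39% of all tested genes: TRA2A and TRA2B were higher with PB (1.24% of all tested genes) and SRPK2 was lower (3.15%). The median of the 10 log2 fold changes was 0.04, beside 0.01 over all tested genes. TRA2A had 202.9, 211.4 and 247.9 CPM with PB, against 139.8, 151.4 and 189.7 CPM with DMSO, with the third line highest under both treatments. Its log2 fold change was 0.46 ± 0.12 (edgeR adjusted p 0.0253). TRA2B had 489.5, 506.4 and 461.3 CPM with PB, against 382.0, 371.8 and 337.9 CPM with DMSO, and here the third line was lowest under both treatments. Its log2 fold change was 0.42 ± 0.09 (edgeR adjusted p 0.00469).

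SRPK2 in SUGP1 E554K had 47.1, 47.6 and 48.4 CPM with PB, against 62.9, 60.3 and 55.5 CPM with DMSO. The 3 PB values lay within 2 CPM of each other and below every DMSO value, and the log2 fold change was -0.32 ± 0.09 (edgeR adjusted p 0.0451). SRRM1 had 520.1, 537.5 and 459.6 CPM with PB, against 454.9, 393.8 and 346.8 CPM with DMSO. Each line was higher with PB than its own DMSO library, and SRRM1 was called only when the line was a block (log2 fold change 0.34 ± 0.11, edgeR adjusted p 0.0760, and 0.00936 with the block). SRPK1 had 135.5, 129.3 and 106.9 CPM with PB, against 167.9, 162.8 and 124.7 CPM with DMSO, and it was called once the replicate block was added (log2 fold change -0.29 ± 0.11, edgeR adjusted p 0.151, and 0.0254 with the block). With the block, 5 of the 10 genes were called in SUGP1 E554K, against 11.9% of all tested genes. The SRPK2 call was lost in 9 of 14 alternatives, among them other size factors (edgeR adjusted p 0.0787) and unrounded values (0.0504). The SRPK2, TRA2A and TRA2B calls were all lost when only the 6 SUGP1 E554K libraries were fitted (edgeR adjusted p 0.306, 0.215 and 0.140), when 0.321% of all tested genes were called. TRA2B alone was called when any of DMSO libraries 1 and 2 and PB libraries 2 and 3 was left out (1.99% to 2.62% of all tested genes called).

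In SUGP1 G603N, edgeR called TRA2B alone, against 3.85% of all tested genes (1.24% higher, 2.61% lower). TRA2B had 468.5, 458.5 and 477.7 CPM with PB, against 384.7, 369.9 and 351.5 CPM with DMSO. The groups did not overlap, and the log2 fold change was 0.34 ± 0.09 (edgeR adjusted p 0.0228). TRA2A had 173.7, 207.8 and 225.7 CPM with PB, against 134.4, 176.2 and 163.4 CPM with DMSO. The lowest PB library, of line 1, lay just below the highest DMSO library, of line 2, so the groups touched while each line was higher with PB (log2 fold change 0.36 ± 0.12, edgeR adjusted p 0.106, and 0.00549 with the line as a block). SRRM1 was called with the block as well (log2 fold change 0.33 ± 0.11, edgeR adjusted p 0.0959, and 0.0147 with the block), as was SRPK1 (-0.29 ± 0.11, edgeR adjusted p 0.166, and 0.0311 with the block). With the block, 4 of the 10 genes were called, against 9.43% of all tested genes.

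SRPK2 split the SUGP1 G603N lines. It had 52.4, 52.3 and 60.1 CPM with PB, against 66.8, 69.5 and 58.6 CPM with DMSO, so that lines 1 and 2 were lower with PB and line 3 was slightly higher. Its log2 fold change was -0.24 ± 0.09 (edgeR adjusted p 0.163), and -0.37 without the third SUGP1 lines (edgeR adjusted p 0.0127), when 10.9% of all tested genes were called. The TRA2B call of SUGP1 G603N was lost without any 1 of its 6 libraries (edgeR adjusted p 0.0516 to 0.149), when 2.0% to 7.94% of all tested genes were called. It was also lost in a fit of these 6 libraries alone (edgeR adjusted p 0.307), which called 0.00416% of all tested genes. Without the third DMSO library, 2 other genes were called in its place, SRPK2 (edgeR adjusted p 0.0230) and CLK4 (edgeR adjusted p 0.0440). That fit called 7.94% of all tested genes, against 3.85% in the main fit.

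In the lines with a changed SF3b subunit, none of the 10 genes was called with PB. In PHF5A 2xTL, edgeR called 0 of the 10, against 0.00318% of all tested genes, and DESeq2 called 0. An edgeR unadjusted p under 0.05 was found for 1 of the 10, and for 407 of the 31444 tested genes. TRA2A had 146.9, 140.1 and 165.7 CPM with PB, against 135.3, 127.4 and 140.6 CPM with DMSO (log2 fold change 0.17 ± 0.12). TRA2B had 358.7, 383.4 and 379.7 CPM with PB, against 378.9, 358.8 and 359.1 CPM with DMSO, and its groups overlapped almost fully (0.03 ± 0.09). SRRM1 had 411.9, 516.3 and 503.2 CPM with PB, against 404.8, 474.4 and 431.5 CPM with DMSO (0.13 ± 0.11). SRPK2 had 57.6, 67.0 and 61.6 CPM with PB, against 60.8, 60.6 and 61.5 CPM with DMSO, so the PB libraries lay on both sides of a tight DMSO group (0.03 ± 0.09).

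CLK1 was the gene with the unadjusted p under 0.05 in PHF5A 2xTL. It had 45.6, 42.4 and 44.4 CPM with PB, against 55.5, 47.0 and 58.4 CPM with DMSO, a log2 fold change of -0.28 ± 0.13 that did not pass the adjustment (edgeR unadjusted p 0.0415, adjusted p 1). The PB group of PHF5A 2xTL was the lowest of the 10 groups for CLK1, and the only one whose libraries did not overlap those of the next group in order. For CLK1 and CLK4, the PB libraries of PHF5A 2xTL lay below its DMSO libraries, and these were the 2 of the 10 genes with groups that did not overlap, against 8.12% of all tested genes.

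In SF3B1 T1080I, edgeR called 0 of the 10 genes, against 0.00318% of all tested genes, and DESeq2 called 0. An edgeR unadjusted p under 0.05 was found for 0 of the 10, and for 275 of the 31444 tested genes. TRA2A had 163.3, 176.3 and 156.8 CPM with PB, against 138.8, 138.3 and 155.3 CPM with DMSO. These groups did not overlap, the 1 such gene of the 10 against 7.6% of all tested genes, but the log2 fold change of 0.20 ± 0.12 did not pass the test (edgeR adjusted p 1). TRA2B had 347.8, 406.1 and 394.6 CPM with PB, against 329.2, 348.0 and 383.8 CPM with DMSO (0.11 ± 0.09). SRPK2 had 73.6, 75.8 and 69.8 CPM with PB, against 70.4, 66.8 and 66.9 CPM with DMSO. Its log2 fold change was 0.10 ± 0.09, with an approximate 95% interval of -0.08 to 0.28 that includes 0.

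**Figure D2:**
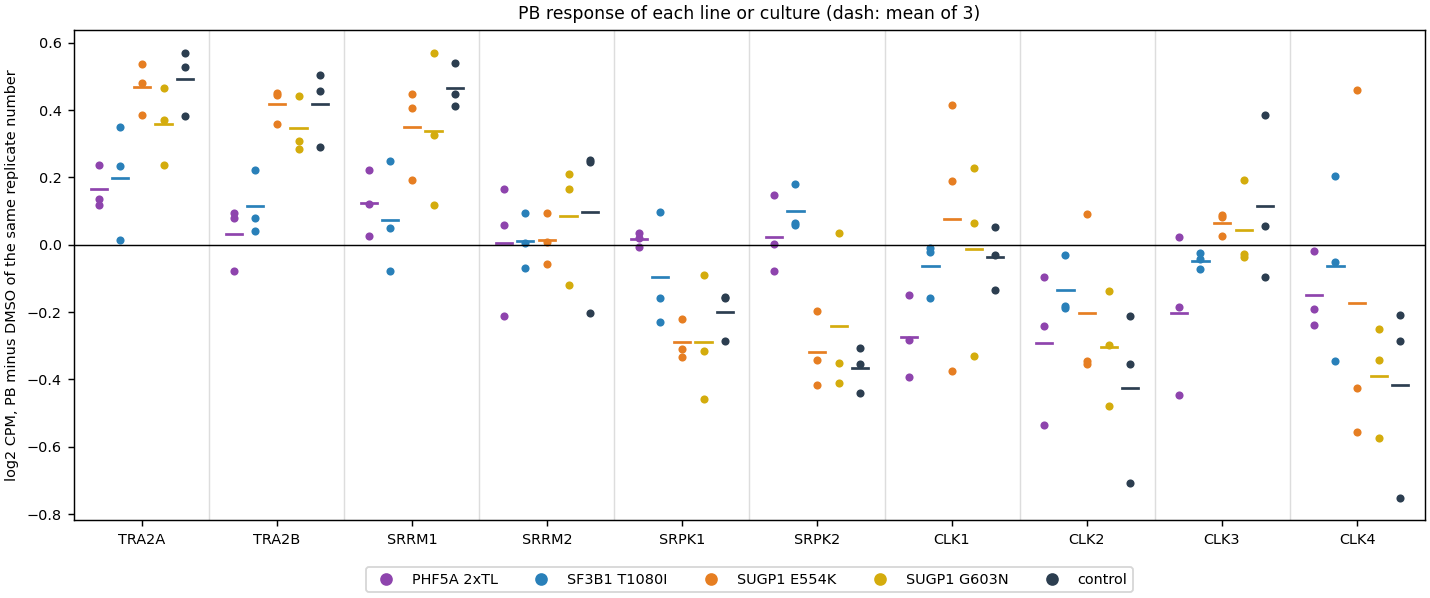
Difference in log2 CPM between the PB and DMSO libraries of the same replicate number, for each of the 10 genes, with a point per line or control replicate, a colour per genotype and a dash at the mean of 3. TRA2A lies above 0 in all 15 pairs, between 0.01 and 0.57, and SRPK2 lies between -0.44 and -0.31 in the control replicates and between 0.06 and 0.18 in the SF3B1 T1080I lines.

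The direction of change was also counted pair by pair. Such a count ignores the size of the difference, for example 0.01 for TRA2A in line 3 of SF3B1 T1080I. The share of all tested genes with as uniform a direction was not computed. Among the 15 matched pairs, which are 12 mutant lines and 3 control replicates, TRA2A was higher with PB in 15, and TRA2B and SRRM1 were each higher in 14. The TRA2B exception was line 1 of PHF5A 2xTL (-0.08 on the log2 scale) and the SRRM1 exception was line 3 of SF3B1 T1080I (-0.08). CLK2 was lower with PB in 14 pairs, CLK4 in 13 and SRPK1 in 12. CLK1 was lower in 10, CLK3 in 8 and SRRM2 in 5. For SRPK2, 9 pairs were lower and 6 higher: all control replicates, all SUGP1 E554K lines and 2 SUGP1 G603N lines were lower, along with line 1 of PHF5A 2xTL, and the others were higher.

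Whether the response itself differed between genotypes was tested as a difference of log2 fold changes. Against control, edgeR called none of the 10 genes in any of the 4 mutants. In PHF5A 2xTL minus control, edgeR called 0.274% of all tested genes and DESeq2 called 0 of the 10. An edgeR unadjusted p under 0.05 was found for 3 of the 10, and for 1991 of the 31444 tested genes. Of these 3, TRA2B differed by -0.38 ± 0.12 (edgeR adjusted p 0.312), SRPK2 by 0.39 ± 0.13 (edgeR adjusted p 0.341) and SRRM1 by -0.34 ± 0.16 (edgeR adjusted p 0.724). In SF3B1 T1080I minus control, edgeR called 0.321% of all tested genes and DESeq2 called 0 of the 10. An edgeR unadjusted p under 0.05 was found for 3 of the 10, and for 2112 of the 31444 tested genes. The difference was 0.47 ± 0.13 for SRPK2 (edgeR adjusted p 0.161), -0.39 ± 0.16 for SRRM1 (edgeR adjusted p 0.544) and -0.30 ± 0.12 for TRA2B (edgeR adjusted p 0.581). These mutant comparisons share the control libraries.

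In the SUGP1 genotypes minus control, edgeR and DESeq2 called 0 of the 10, and edgeR called 0% of all tested genes. By edgeR, 0 of the 10 had an unadjusted p under 0.05, against 649 of the 31444 tested genes in SUGP1 E554K and 881 in SUGP1 G603N. For TRA2B the difference was 0.00 ± 0.12 in SUGP1 E554K, with an approximate 95% interval of -0.24 to 0.25, and -0.07 ± 0.12 in SUGP1 G603N, with an interval of -0.31 to 0.18. For SRPK2 it was 0.05 ± 0.13 in SUGP1 E554K (interval -0.21 to 0.30) and 0.12 ± 0.13 in SUGP1 G603N (interval -0.13 to 0.38). These intervals are wide beside the size of the control response.

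The mean response of the SUGP1 genotypes minus the mean response of PHF5A 2xTL and SF3B1 T1080I uses no control library. It called SRPK2, the 1 gene of the 10 lower, against 1.81% of all tested genes (1.35% lower). The difference was -0.35 ± 0.09 (edgeR adjusted p 0.0493). TRA2B differed by 0.31 ± 0.09 and was called with the line as a block (edgeR adjusted p 0.0708, and 0.0174 with the block), when 6% of all tested genes were called. SRPK1 differed by -0.25 ± 0.11 (edgeR adjusted p 0.345), SRRM1 by 0.24 ± 0.11 (edgeR adjusted p 0.399) and TRA2A by 0.23 ± 0.12 (edgeR adjusted p 0.490). The SRPK2 call lay at the threshold: it was lost in edgeR fits with other size factors (adjusted p 0.0838), with unrounded values (0.0566) and without the low-count filter (0.322), and in 21 of the 24 fits that each left out 1 library.

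**Figure D3:**
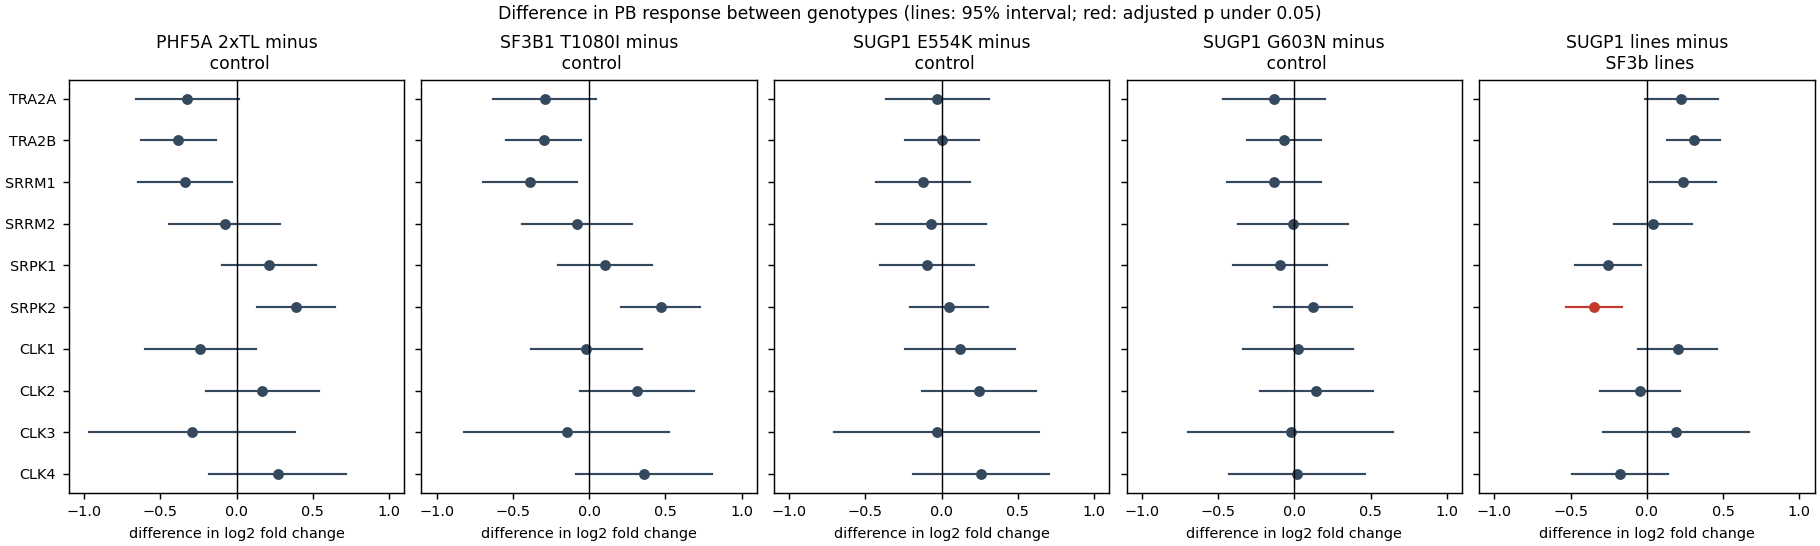
Difference in log2 fold change (PB over DMSO) between genotypes for the 10 genes, a panel per comparison, with points at the estimate and bars for the approximate 95% interval, red where the edgeR adjusted p was under 0.05. SRPK2 lies at 0.39 and 0.47 in PHF5A 2xTL and SF3B1 T1080I minus control, and at -0.35 in the SUGP1 lines minus the lines with a changed SF3b subunit, the 1 red point.

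Without PB, the 10 genes were tested in each mutant against the control line. In DMSO, edgeR called 0 of the 10 in PHF5A 2xTL (0.00954% of all tested genes), SF3B1 T1080I (0%), SUGP1 E554K (0%) and SUGP1 G603N (0.0127%), and DESeq2 called 0. An edgeR unadjusted p under 0.05 was found for 0 of the 10 in any of them. Of the 31444 tested genes, 1437, 1174, 1210 and 1585 had such a p, in the same order. For TRA2A, TRA2B, SRRM1 and SRPK2 the log2 differences lay between -0.14 (SRPK2, SUGP1 E554K) and 0.22 (SRRM1, SF3B1 T1080I). SRRM1 in SF3B1 T1080I had 472.3, 474.2 and 495.7 CPM in DMSO, against 399.5, 439.5 and 402.4 CPM in the DMSO control. These groups did not overlap, and the difference was 0.22 ± 0.11 (edgeR adjusted p 1). SRPK1 in SF3B1 T1080I had 144.5, 143.0 and 160.1 CPM, against 179.8, 168.6 and 172.9 CPM in the control, a difference of -0.22 ± 0.11 (edgeR adjusted p 1). Among all tested genes, 11.9% had groups that did not overlap in this comparison. SRPK2 also lay below the control without overlap in PHF5A 2xTL (-0.10 ± 0.09) and SUGP1 E554K (-0.14 ± 0.09). The same held for SRPK1 in SUGP1 E554K (-0.20 ± 0.11). The share of all tested genes without overlap is not given here for PHF5A 2xTL and SUGP1 E554K.

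CLK3 had the largest difference of the 10 in DMSO. In SUGP1 G603N it had 62.9, 59.2 and 104.6 CPM, and in SUGP1 E554K 59.0, 57.1 and 93.0 CPM, against 49.0, 45.9 and 67.6 CPM in the control. In both genotypes the third line stood far above the other pair, also with PB, where CLK3 had 119.6 CPM in line 3 of SUGP1 G603N and 98.4 CPM in line 3 of SUGP1 E554K. The log2 difference was 0.48 ± 0.24 in SUGP1 G603N (edgeR adjusted p 0.964) and 0.36 ± 0.24 in SUGP1 E554K (edgeR adjusted p 1), and 0.18 and 0.11 without the third lines. EDC3 overlaps CLK3 by 14857 bases on the other strand and had 84.9% of its counts.

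The genes around CLK3 were high in the same libraries. Over 55 tested genes within 5 Mb of CLK3 on chromosome 15, the median log2 ratio to the control of the same treatment was 1.07 with PB and 0.79 with DMSO in line 3 of SUGP1 G603N, where CLK3 itself was at 1.05 and 0.97. In line 3 of SUGP1 E554K the median was 0.64 with PB and 0.56 with DMSO, beside 0.77 and 0.80 for CLK3. In the other 20 mutant libraries the median lay between -0.21 and 0.04. Around the other 9 genes, the medians of all mutant libraries lay between -0.26 and 0.40. The part of this regional difference in the CLK3 values was not tested.

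**Figure D4:**
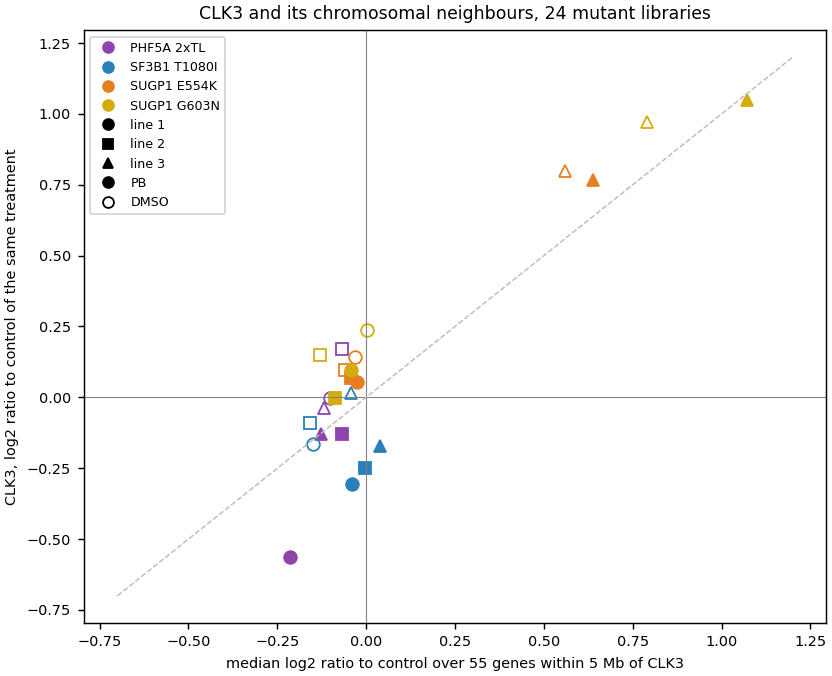
CLK3 in each of the 24 mutant libraries, as the log2 ratio to control of the same treatment (vertical axis), against the median of the same ratio over 55 genes within 5 Mb (horizontal axis), with a dashed line of equality. The 4 libraries of the third SUGP1 lines lie apart, at medians of 0.56 to 1.07, and the other 20 lie at -0.21 to 0.04.

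Ordered by group mean, the 10 groups of each gene formed a nearly unbroken series. For TRA2A and TRA2B the one gap between neighbours whose libraries did not overlap lay below the 3 highest groups, which were the PB groups of SUGP1 E554K, SUGP1 G603N and the control. For SRPK2 the one gap lay above the lowest group, SUGP1 E554K with PB (47.7 ± 0.68 CPM, SD, n = 3). It was narrow, from 48.4 CPM to 48.8 CPM in the control line with PB. CLK1 had a gap above its lowest group, PHF5A 2xTL with PB. CLK2 had a gap below its highest group, PHF5A 2xTL with DMSO, and CLK4 had a gap between the PB and DMSO groups of PHF5A 2xTL. The share of all tested genes with such a gap was not computed. SRRM1, SRRM2, SRPK1 and CLK3 had no such gap. Whether the libraries of neighbouring groups overlap is not a test of a difference between them. The highest group mean was 1.64 times the lowest for TRA2A, 1.53 for SRPK2, 1.44 for TRA2B and SRRM1, and 1.16 for SRRM2, the flattest of the 10.

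Per kilobase of the gene length given in the table, levels in the DMSO control ran from SRRM2, with 151.4 CPM per kb, through SRRM1 (52.2), TRA2A (40.1), TRA2B (29.1), SRPK1 (26.0), CLK2 (22.3), CLK1 (10.9) and SRPK2 (10.3) to CLK4 (2.91) and CLK3 (2.75). The table lists long lengths for TRA2B (13084 bases) and CLK3 (19697 bases), which lower their values on this scale.

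The substrates and partners of these proteins were counted in 3 lists. The list genes called in the control line had standard errors of 0.10 (PPP1R8) to 0.29 (SRRM5), beside a median of 0.49 over all tested genes. The shares of all tested genes given beside the list counts are thus not a like comparison either. Of 12 genes of the SR proteins, the main substrates of SRPK and CLK kinases, edgeR called 3 higher and 0 lower with PB in the control line, where 1.1% of all tested genes were called higher and 3.34% lower (median log2 fold change 0.31, beside 0.02 over all tested genes). It called 6 higher in SUGP1 E554K (median 0.35) and 2 higher in SUGP1 G603N (0.29), where 1.24% of all tested genes were called higher in each. It called 0 in PHF5A 2xTL (median -0.01) and SF3B1 T1080I (0.13), where only 0.00318% of all tested genes were called in each. The pair in SUGP1 G603N was SRSF1 (0.46, edgeR adjusted p 0.0399) and SRSF2 (0.38, edgeR adjusted p 0.0411), which are named because the count is small. SRSF10, a splicing repressor active when dephosphorylated, averaged 365 ± 17.0 CPM with PB and 278 ± 13.0 CPM with DMSO in the control line (SD, n = 3 each), a log2 fold change of 0.39 (edgeR adjusted p 0.0264). SRSF7 and SRSF4, exon-binding SR proteins, had log2 fold changes of 0.36 and 0.38 (edgeR adjusted p 0.0283 and 0.0406).

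Of 34 genes for other proteins with RS domains, 5 rose and 1 fell with PB in the control line by the same test (median 0.25), against 1.1% and 3.34% of all tested genes. CCNL1, a cyclin of speckle-associated kinases, rose to 112 ± 7.77 CPM with PB, against 73.7 ± 3.09 CPM with DMSO (SD, n = 3 each, log2 fold change 0.61, edgeR adjusted p 0.00120). SREK1 and BCLAF1, RS-rich proteins, rose by 0.44 and 0.46 on the log2 scale (edgeR adjusted p 0.00689 and 0.0124), and SRRM5, a low-abundance relative of SRRM1 by name, rose by 1.48 (edgeR adjusted p 0.00185). The fifth was NKTR, a cyclophilin with RS repeats (0.40, edgeR adjusted p 0.0492). U2SURP, an RS protein associated with the U2 snRNP, fell by 0.56 (edgeR adjusted p 0.00166). In SUGP1 E554K 6 of the 34 rose and 1 fell (1.24% and 3.15% of all tested genes), in SUGP1 G603N 5 rose and 1 fell (1.24% and 2.61%), and 0 were called in PHF5A 2xTL and SF3B1 T1080I (0.00318% of all tested genes in each). Of 16 genes for other kinases, a phosphatase and import factors of SR proteins, 0 rose and 1 fell in the control line, against 1.1% and 3.34% of all tested genes: PPP1R8, a nuclear regulator of protein phosphatase 1, fell by 0.41 (edgeR adjusted p 0.0106). PPP1R8 was not called in SUGP1 E554K (-0.13, edgeR adjusted p 0.559) or SUGP1 G603N (-0.09, edgeR adjusted p 0.698). Of the 16, 1 was called higher in SUGP1 G603N, against 1.24% of all tested genes. It was the kinase gene CDK11A (0.84, edgeR adjusted p 0.00815), whose counts are uncertain because CDK11B is a near-identical copy. In SUGP1 E554K 0 of the 16 were called (4.39% of all tested genes), as in PHF5A 2xTL and SF3B1 T1080I (0.00318% in each).

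The genes whose level was most like that of the members that were called were sought among 9855 genes averaging 10 CPM or more, by Pearson's r of log2 CPM over the 30 libraries, which share treatment, genotype and line. TRA2B was most like SRSF7 (r = 0.96, Spearman's rho = 0.95), then SNHG1 (r = 0.94) and HNRNPDL (r = 0.93). SRRM1 was most like CBLL1 (r = 0.93), BCLAF1 (r = 0.92) and RBM26 (r = 0.91). TRA2A was most like FAHD1 (r = 0.90), EIF5A (r = 0.90) and VCPKMT (r = 0.89), and SRPK2 most like ROCK2, SIPA1L3 and ATAD2 (r = 0.91 each). These values describe the libraries and carry no test.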

How the data were processed

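The data are 30 RNA-seq libraries of eHAP FNLS cells; per the labels' protocols, poly(A) RNA was used with a CORALL kit and paired-end sequencing on a NovaSeq S4. The submitters' processing notes name UMI-tools, STAR, SAMtools 1.10 and the hg38 build. The sources used here give no counting program, annotation or strand setting. The authors deposited estimated counts per gene, not normalized, of which 65.5% of values above 0 are not whole, so fractions of shared reads may be divided between similar genes. Columns were matched to libraries by name. Of 61487 gene identifiers, 61474 had a symbol in the gene name table or GENCODE release 29, which gave coordinates.

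Counts were rounded and filtered (filterByExpr over the 10 groups, 31444 genes kept), scaled by TMM and fitted with edgeR 4.0.16 (R 4.3.3) as 1 quasi-likelihood model of 10 group means. Each of 14 contrasts was adjusted over all tested genes (Benjamini-Hochberg), with a threshold of 0.05 on the adjusted p. Standard errors (the fold change over the root of F) and the 95% intervals made with them are approximate. The fit was tested on simulated counts with known changes. These were drawn independently, without clone effects or pairing, so that test does not bear on either. Replicate numbers pair PB with DMSO libraries, and the labels give the same clone to both in the mutants. Over 11998 genes, the deviations of same-numbered libraries from their group means correlated at 0.43 to 0.84 in the mutants. In the 3 control pairs they correlated at 0.41, 0.21 and 0.44, so the pairing is less well founded in the control line. Alternatives were DESeq2 1.42.0, other size factors, library totals, no filter, unrounded values, the replicate block, only the groups compared, each library left out, and the third SUGP1 lines left out. All 10 genes are named, with up to 4 called genes per list and direction and the 3 most similar genes per called member. Members and lists were chosen with earlier results of these data known.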

Additional observations from a re-analysis of the deposited data

Results flagged for a closer look

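The PB response of SRPK2 passed the threshold for a difference between the kinds of mutant, narrowly. The mean log2 fold change (PB over DMSO) of the SUGP1 lines minus that of PHF5A 2xTL and SF3B1 T1080I was -0.35 ± 0.09, with an edgeR adjusted p of 0.0493 over all tested genes. The call was lost in 24 of 32 alternatives, among them other size factors (edgeR adjusted p 0.0838), unrounded values (0.0566), no low-count filter (0.322) and 21 of the 24 fits without 1 library, while the difference stayed between -0.44 and -0.32. SRPK2 was lower with PB in all 3 SUGP1 E554K lines and in 2 of 3 SUGP1 G603N lines, and higher in 3 of 3 SF3B1 T1080I lines and 2 of 3 PHF5A 2xTL lines. The overlapping gene KMT2E had log2 fold changes of 0.31 in SUGP1 E554K, 0.12 in SUGP1 G603N, 0.08 in PHF5A 2xTL and 0.04 in SF3B1 T1080I.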

How the results depend on the processing

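Across 140 pairs of gene and comparison, 2270 values were recomputed under the alternatives: 65 calls were lost, 19 were gained, no called value changed sign, and 159 values that were uncalled in both fits changed sign. The share of all tested genes called in the same fit is given in brackets. In the control line, 4 of the 10 genes were called with PB (4.44%), and 5 by DESeq2 (6.12%), with library totals only (5.3%) and with the replicate block (9.84%). The count was 3 without the low-count filter (SRPK2 lost, 1.76%), and 0 to 3 with 1 library left out (1.97% to 2.91%). In SUGP1 E554K (3 called, 4.39%) the count was 1 without the low-count filter (1.65%), 5 with the replicate block (11.9%) and 0 with only the groups compared (0.321%). In that last fit 4 of the 10, and 3349 of all 24298 genes, had an edgeR unadjusted p under 0.05. It was 4 with library totals only (SRPK1 gained, edgeR adjusted p 0.0481, 5.71%). The count was 2 with DESeq2's size factors in edgeR (4.09%) and with unrounded values (4.25%), with SRPK2 lost in both, and 1 to 3 with 1 library left out (1.99% to 5.76%). In SUGP1 G603N (1 called, 3.85%) it was 2 with library totals only (4.4%), 4 with the block (9.43%), 2 without the third SUGP1 lines (10.9%) and 0 to 2 with 1 library left out (2.0% to 7.94%). It was 0 without the filter (1.39%), where 6 of the 10 and 6515 of all 57331 genes had an edgeR unadjusted p under 0.05. With only the groups compared it was also 0 (0.00416%), where 5 of the 10 and 2314 of all 24015 genes had such a p. For the SUGP1 lines minus the SF3b lines (1 called, 1.81%) it was 2 with DESeq2 (3.24%), library totals only (2.44%), the replicate block (6%) and without the third SUGP1 lines (8.07%). It was 0 with DESeq2's size factors in edgeR (1.64%), without the filter (0.672%) and with unrounded values (1.72%), and 0 to 1 with 1 library left out (1.18% to 2.56%). The other 10 comparisons had 0 called under every alternative run. The cause of these differences was not tested. A fit without a library, or with only the groups compared, holds fewer samples and also estimates the spread from other libraries. No paired analysis was possible for mutant against control, because lines of different genotypes share no pairing. Over all genes, PB in the control line gave 1395 calls, 1924 with DESeq2, 3095 with the block, 2397 with only the groups compared and 1010 without the filter; in SUGP1 E554K and SUGP1 G603N, 1381 and 1211 calls became 78 and 1 with only the groups compared. Among the scalings, the largest shift of the median log2 fold change of all genes was -0.06, with library totals in SUGP1 E554K. CLK4, at 14.7 to 28.95 CPM, had the fewest counts of the 10 genes and so the largest counting error.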
